A study of Mus musculus with 23 samples.

Results

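Interferon response genes are the genes that cells switch on when an interferon reaches its receptor. The 37 genes described here were taken from a fixed list by symbol: 28 are targets mainly of the type I interferons, and 9 are targets mainly of interferon gamma. Of these, 35 have an identifier among the 37620 in each count table, 28 in the type I arm and 7 in the interferon gamma arm. Expression of Gbp5 and Gbp6 was not analysed here. Their levels were read in 23 RNA-seq libraries of ultraviolet-induced mouse melanoma.

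The tumours fall into 4 groups. Lung metastases (2 libraries, numbers 3 and 4), lymph node metastases (7 libraries) and HPN primary melanomas (7 libraries, numbers 1 to 7) carry the genotype Nme1+/- / Nme2+/-. HP primary melanomas (7 libraries, numbers 1, 3, 4, 5, 6, 7 and 9) are Nme1wt / Nme2wt. By their labels, the brachial nodes are numbers 3, 4 and 8, the cervical ones 6 and 7a, the inguinal one 7b, and number 5 is called lymph with no site. The labels do not spell out HP. In this model the letters are known to stand for an Hgf transgene and for loss of the p16 product of Cdkn2a, which all 4 groups then share. The sources used here give no strain, sex, age, time of sampling or promoter of the transgene. The title numbers were read as animals, so nodes 7a and 7b count as 1 sample and the node group has n = 6. Nothing in the labels says whether 2 libraries of a group came from separate litters or runs. The products of Nme1 and Nme2 are enzymes that pass phosphate between nucleotides, and loss of the first is known to favour metastasis.

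Each library held 18.9 to 89.5 counts assigned to genes, in units of 1e6. The targeted gene Nme1 had 10.6 ± 2.78 CPM in HPN primaries and 16.8 ± 8.06 CPM in HP primaries (SD, n = 7 each), a log2 difference of -0.69 (SE 0.27) that did not pass the test (edgeR adjusted p = 0.951), and the groups overlapped. Nme2 had 0.238 ± 0.127 CPM in HPN primaries and 0.480 ± 0.201 CPM in HP primaries (SD, n = 7 each). Its log2 difference was -1.02 (SE 0.38, edgeR adjusted p = 0.951). These Nme2 levels are near the floor, at 2 to 21 counts per HPN primary and 11 to 41 counts per HP primary. The summed level of 7 melanocyte markers was 4507.2 CPM or more in every library. Its median was 29861.9 CPM in the lungs, 15366.6 CPM in the nodes, 36237.8 CPM in HPN primaries and 28033.9 CPM in HP primaries. One lung library, number 3, held only 3.31 CPM of 5 alveolar markers, against 7428.9 CPM in lung 4. Levels are counts per 1e6 counts assigned to genes (CPM), scaled over the 23 libraries by TMM. CPM are not divided by gene length, so levels are compared between libraries for 1 gene and never between genes.

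In outline of the known biology, type I interferons are made by cells that sense foreign or misplaced nucleic acid. Their receptor works through Jak1 and Tyk2, and a complex that holds Stat2 and Irf9 then binds the interferon-stimulated response element (ISRE). Interferon gamma comes mainly from T cells and natural killer cells, and its receptor works through Jak1 and Jak2 on genes with a gamma-activated site (GAS). Many genes answer to both, and most leukocytes as well as melanoma cells carry both receptors.

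The promoters of the members differ in these elements. RefSeq promoter entries of GRCm38.p6 were found and used for 28 of the 37 listed genes, and 250 bases before the start were searched on both strands. The letters GAAANNGAAA, the core of an ISRE, were found in 8 of 21 type I promoters (38.1%), in 6 of 7 interferon gamma promoters (85.7%) and in 2.98% of 32851 promoters of all genes. The letters TTCNNNGAA, the core of a GAS, were found in 3 of 21 type I promoters (14.3%), in 4 of 7 interferon gamma promoters (57.1%) and in 7.02% of all promoters. The 7 interferon gamma promoters include that of Gbp5, which has matches of both kinds, and not that of Iigp1. A match of these letters is a description and not a binding site. The 7 promoters shown here stand for the patterns that follow: Ddx58 and Irf1 were higher in lymph nodes, Isg15 and Ifit1 were not, and Gbp2, Gbp7 and Igtp are interferon gamma targets. Each line gives the 150 bases before the start, 5′ to 3′ on the gene's strand, with ISRE and GAS letters on either strand in capitals. Overlapping matches run together, and Ddx58 has no match in its 250 bases.
Ddx58 (chr4:40239826-40239975, minus strand): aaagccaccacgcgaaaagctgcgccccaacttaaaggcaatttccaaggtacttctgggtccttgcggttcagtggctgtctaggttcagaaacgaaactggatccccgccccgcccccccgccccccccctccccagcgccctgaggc
Irf1 (chr11:53769864-53770013, plus strand): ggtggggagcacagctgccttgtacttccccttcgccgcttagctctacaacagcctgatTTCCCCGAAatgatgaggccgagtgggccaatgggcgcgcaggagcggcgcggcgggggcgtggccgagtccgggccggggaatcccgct
Isg15 (chr4:156200819-156200968, minus strand): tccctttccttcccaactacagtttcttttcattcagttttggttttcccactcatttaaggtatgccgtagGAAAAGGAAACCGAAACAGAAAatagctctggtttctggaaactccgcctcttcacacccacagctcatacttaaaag
Ifit1 (chr19:34640739-34640888, plus strand): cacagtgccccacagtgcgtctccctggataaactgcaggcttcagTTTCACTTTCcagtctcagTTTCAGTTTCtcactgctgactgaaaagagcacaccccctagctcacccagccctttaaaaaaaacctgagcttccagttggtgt
Gbp2 (chr3:142620513-142620662, plus strand): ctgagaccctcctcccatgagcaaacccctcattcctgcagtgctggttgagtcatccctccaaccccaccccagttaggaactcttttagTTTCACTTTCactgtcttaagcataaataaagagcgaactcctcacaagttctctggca
Gbp7 (chr3:142530186-142530335, plus strand): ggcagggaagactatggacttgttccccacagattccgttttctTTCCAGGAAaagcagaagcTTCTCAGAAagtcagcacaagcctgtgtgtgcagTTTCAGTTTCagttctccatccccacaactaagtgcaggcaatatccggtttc
Igtp (chr11:58199406-58199555, plus strand): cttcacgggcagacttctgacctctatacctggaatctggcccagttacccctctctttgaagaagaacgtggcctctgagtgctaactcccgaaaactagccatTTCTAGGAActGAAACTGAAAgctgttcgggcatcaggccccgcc

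Isg15 has 3 overlapping ISRE matches, the nearest ending 56 bases before the start, and Ifit1 has 2, the nearest ending 75 bases before it. Irf1 carries a single GAS match 81 bases before the start and no ISRE match. In Igtp an ISRE match and a GAS match lie 24 and 36 bases before the start, and Gbp7 has 1 ISRE match and 2 GAS matches.

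All 35 members had counts in every library, the lowest being 6 counts of Oasl1, and 33 of the 35 had at least 10 counts in each library. All 35 passed the filter on low counts in both fits, so the counts of members that follow leave no measured member out. The genes are described by role, beginning with the effectors of the type I arm. Throughout, 3 values for a group are its lowest, median and highest library, and the 2 lung values are those of lung 3 and lung 4.

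Isg15, a ubiquitin-like protein that is attached to other proteins, had 2.32 and 3.21 CPM in the lungs, 1.83, 2.99 and 6.48 CPM in the nodes, 0.939, 5.21 and 9.35 CPM in HPN primaries and 1.72, 3.19 and 14.3 CPM in HP primaries. The highest of all 23 libraries was HP primary 3 and the lowest HPN primary 2, both of them primaries, and all 4 groups overlapped. Usp18, the protease that removes Isg15 and dampens the type I receptor, had 1.51 and 4.24 CPM in the lungs, 4.20, 8.51 and 18.8 CPM in the nodes, 1.60, 4.68 and 11.4 CPM in HPN primaries and 1.65, 3.77 and 15.6 CPM in HP primaries. Its node median lay above the other medians, but both sets of primaries reached into the node range.

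Ifit3, one of a family of proteins that bind foreign RNA, had 10.2 and 15.1 CPM in the lungs, 5.98, 12.7 and 27.0 CPM in the nodes, 10.9, 21.5 and 38.2 CPM in HPN primaries and 6.95, 14.7 and 34.2 CPM in HP primaries. Its lowest library of the series was node 5. Of the 50-base stretches of Ifit3, 51.2% are shared with other genes, Ifit3b sharing the most, so its counts could be split between the genes. Mx1, a dynamin-like GTPase that blocks influenza virus, had 1.61 and 0.965 CPM in the lungs, 1.93, 6.06 and 15.7 CPM in the nodes, 0.695, 2.52 and 14.7 CPM in HPN primaries and 0.846, 2.82 and 10.3 CPM in HP primaries. One HPN primary, number 1, stood near the top of the node range and the other HPN primaries stood below its middle.

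Oas2, an oligoadenylate synthetase that activates RNase L, had 0.482 and 2.93 CPM in the lungs, 1.83, 3.03 and 13.4 CPM in the nodes, 0.430, 1.45 and 5.09 CPM in HPN primaries and 0.351, 1.92 and 5.21 CPM in HP primaries. Node 5 was the highest library. Bst2, the tetherin that holds virus particles at the cell surface, had 10.1 and 16.6 CPM in the lungs, 17.9, 32.6 and 57.8 CPM in the nodes, 13.6, 25.8 and 33.9 CPM in HPN primaries and 11.5, 17.5 and 39.9 CPM in HP primaries. Both lungs lay below all 7 nodes for Bst2, and the nodes overlapped both sets of primaries.

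Among sensors of foreign RNA, Ifih1 (MDA5) had 14.6 and 18.9 CPM in the lungs, 19.0, 29.7 and 41.1 CPM in the nodes, 14.5, 20.1 and 45.1 CPM in HPN primaries and 9.93, 25.8 and 43.5 CPM in HP primaries. Its spread within each set of primaries was wider than the distance between the medians of the groups. The transcription factor Irf7, which amplifies type I interferon production, had 4.69 and 7.34 CPM in the lungs, 5.57, 12.8 and 39.0 CPM in the nodes, 2.33, 7.90 and 16.4 CPM in HPN primaries and 2.0, 5.89 and 32.7 CPM in HP primaries. Node 7a and HP primary 3 were the highest libraries. Stat2, a factor of the type I complex, had 30.2 and 29.5 CPM in the lungs, 40.9, 61.1 and 68.6 CPM in the nodes, 30.3, 40.7 and 52.4 CPM in HPN primaries and 33.0, 37.2 and 54.8 CPM in HP primaries. Both lungs were below every other library for Stat2.

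Of the interferon gamma arm, Gbp2, a guanylate-binding protein that attacks the vacuoles of intracellular pathogens, had 29.9 and 23.6 CPM in the lungs, 15.8, 25 and 174 CPM in the nodes, 11.1, 41.2 and 56.4 CPM in HPN primaries and 15.9, 22 and 98.9 CPM in HP primaries. A single node, 7a, and a single HP primary, number 9, stood far above the rest. Igtp, one of the immunity-related GTPases that also act on such vacuoles, had 3.15 and 7.24 CPM in the lungs, 6.01, 19.2 and 49.2 CPM in the nodes, 4.52, 7.70 and 16.8 CPM in HPN primaries and 2.49, 6.35 and 13.5 CPM in HP primaries. The related Iigp1 had 2.64 and 8.03 CPM in the lungs, 2.71, 15.8 and 86.1 CPM in the nodes, 2.5, 9.74 and 24.3 CPM in HPN primaries and 1.02, 7.64 and 27.6 CPM in HP primaries. For Igtp and Iigp1 as for Gbp2, node 7a was the highest library of the series.

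**Figure D1:**
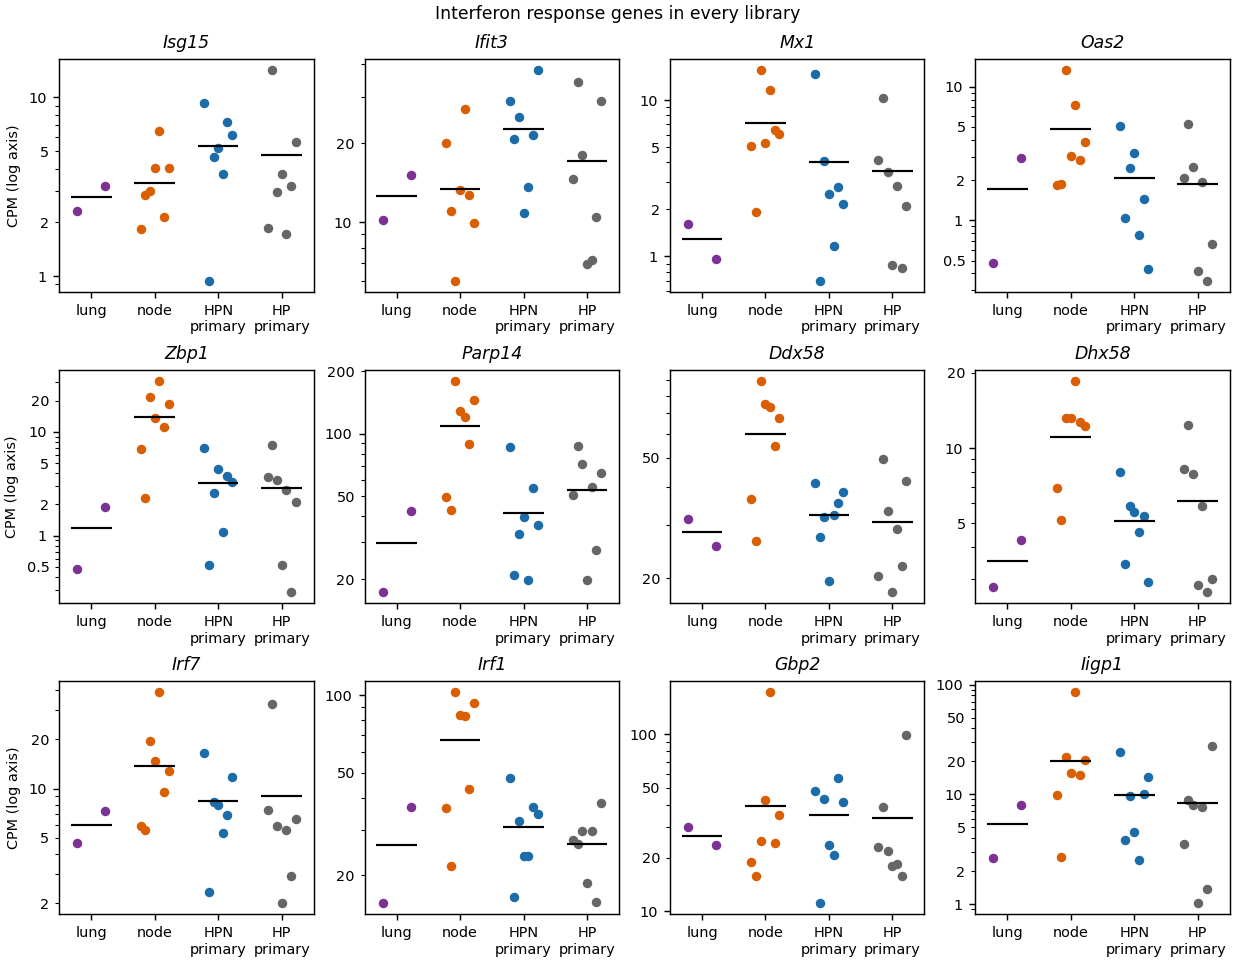
CPM (vertical log axis) of 12 interferon response genes in each library, by group; each point is a library and each bar the group mean, with nodes 7a and 7b averaged. The node mean is the highest for every gene shown except Isg15 and Ifit3, while HPN and HP primaries overlap for every gene shown.

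In lymph node metastases, 6 of the 35 members were higher than in HPN primaries and none was lower (edgeR adjusted p under 0.05), a share of 17.1% against 22.5% of the 19152 genes tested called in either direction and 12.7% called higher. The members called were the RNA sensors Dhx58 and Ddx58, the effectors Zbp1, Parp14 and Trim25, and the interferon gamma factor Irf1. This makes 5 of 28 in the type I arm and 1 of 7 in the interferon gamma arm. Over all 35 members 28 differences were positive and 7 negative, with a median log2 difference of 0.43. Over all genes tested 45.1% were positive and the median was -0.08. The share of members called was thus not far from that of all genes called higher. At an unadjusted p under 0.05 there were 12 of 35 members (34.3%) against 38% of all genes. DESeq2 called 9 members, all higher (25.7%), where it called 30% of all genes, 15.8% as higher.

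Dhx58 (LGP2), which modulates the other RNA helicase sensors, had 5.13, 12.7 and 18.6 CPM in the nodes, against 2.91, 5.33 and 8.02 CPM in HPN primaries, a log2 difference of 1.09 (SE 0.31, edgeR adjusted p = 0.0222). Nodes 3 and 4 lay within the range of the HPN primaries and the other node libraries above it. Ddx58 (RIG-I), the sensor of RNA ends, had 26.6, 67.8 and 89.8 CPM in the nodes, against 19.6, 32.4 and 41.4 CPM in HPN primaries (log2 difference 0.88, SE 0.26, edgeR adjusted p = 0.0247). The same nodes, 3 and 4, overlapped the primaries. Trim25, a ubiquitin ligase that activates RIG-I, had 111, 129 and 156 CPM in the nodes, against 77.1, 87.6 and 120 CPM in HPN primaries (log2 difference 0.42, SE 0.13, edgeR adjusted p = 0.0313). It was the smallest of the 6 differences, and here nodes 4 and 8 lay within the primaries' range.

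Zbp1, a sensor of Z-form nucleic acid that can trigger cell death, had 2.33, 13.6 and 31.1 CPM in the nodes, against 0.521, 3.26 and 7.05 CPM in HPN primaries (log2 difference 2.09, SE 0.61, edgeR adjusted p = 0.0246). Parp14, an ADP-ribosyltransferase, had 43.2, 120 and 180 CPM in the nodes, against 19.8, 36.4 and 86.3 CPM in HPN primaries (log2 difference 1.36, SE 0.42, edgeR adjusted p = 0.0300). In both genes nodes 3 and 4 were the 2 lowest nodes and stood inside the range of the HPN primaries. Irf1, the factor that carries much of the interferon gamma response, had 21.7, 83.1 and 103 CPM in the nodes, against 16.5, 32.4 and 47.7 CPM in HPN primaries (log2 difference 1.10, SE 0.36, edgeR adjusted p = 0.0400). Nodes 3, 4 and 7b overlapped the primaries for Irf1.

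No member had node libraries that were all above or all below the HPN primaries, where 5.92% of all genes did. The other members of the type I arm ranged from a log2 difference of -0.78 for Ifit3 (SE 0.32, edgeR adjusted p = 0.0899) to 1.44 for Oasl1 (SE 0.53, adjusted p = 0.0638), an oligoadenylate synthetase relative that in mice restrains Irf7. Stat2 stood at 0.43 (SE 0.16, adjusted p = 0.0669) and Irf7 at 0.69 (SE 0.43, adjusted p = 0.253). The 7 negative values belong to Ifit1, Ifit2, Ifit3, Isg15, Rsad2, Xaf1 and Mx2, all in the type I arm, and none passed the test; Isg15 was at -0.70 (SE 0.41, adjusted p = 0.218). Ifit3 passed it as lower once node library 7a was left out (22.5% of all genes called). Of the interferon gamma GTPases, Igtp was at 0.92 (SE 0.38, adjusted p = 0.0925), Iigp1 at 1.01 (SE 0.61, adjusted p = 0.241) and Gbp2 at 0.16 (SE 0.44, adjusted p = 0.815).

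Numbers 3 to 7 gave a node and a primary of the same number. With the number as a block in the fit, 0 of the 35 members were called, and 7% of all genes. In the same 12 samples without the block 2 were called, Parp14 and Zbp1, and 14.4% of all genes. Ddx58, Parp14, Trim25, Stat2, Ifi44, Herc6, Ifih1 and Gbp7 were higher in the node in 5 of 5 pairs, Dhx58, Zbp1 and Irf1 in 4 of 5, Ifit2 and Ifit3 in 1 of 5 and Isg15 in 0 of 5. The pairs differed. Node 5 was above its primary for 30 of 35 members, with a median log2 difference of 1.26. Nodes 6 and 7 were above theirs for 27 each, with medians of 0.38 and 0.66. Nodes 3 and 4 were above theirs for 17 and 18, with medians of -0.02 and 0.02. Leukocyte and melanocyte markers also differed between these nodes, as given below, and their part was not tested. Over all 19152 genes tested the same pairs had 9770 positive for node 5 (median 0.03), 9028 for node 6 (-0.03), 9446 for node 7 (0.00), 9680 for node 3 (0.01) and 10644 for node 4 (0.06).

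The number of calls changed with the samples in the fit, for the members and for all genes. Without node 7 there were 0 member calls and 16.2% of all genes, without node 5 there was 1 (Dhx58) and 14.5%, and without node 8 there were 2 and 15.3%. Leaving out node 6, HPN primary 2 or HPN primary 4 left 3 member calls each, with 17.2%, 19.8% and 18.3% of all genes in that order. Without node 4 there were 10 member calls and 27.8% of all genes. The sizes of the 6 differences moved less: over the 15 fits with a sample left out, the log2 difference of Zbp1 stayed between 1.90 and 2.34, that of Dhx58 between 0.96 and 1.24, that of Ddx58 between 0.74 and 1.03, that of Parp14 between 1.18 and 1.60, that of Irf1 between 0.95 and 1.28 and that of Trim25 between 0.35 and 0.48. The highest adjusted p in these fits was 0.0955, for Irf1 without node 5 (edgeR). Irf1 and Parp14 lost their calls in 10 and 9 of the 15 fits and Dhx58 in 1. Without the libraries that hold reads in the entry for low alignment quality, which take out nodes 7a, 7b and 8 and HPN primary 7, 0 members and 8.19% of all genes were called.

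Markers of other cell types moved with the node samples. The pan-leukocyte gene Ptprc had 136, 718 and 988 CPM in the nodes, against 11.4, 46.0 and 88.8 CPM in HPN primaries (log2 difference 3.67, SE 0.58, edgeR adjusted p = 0.000696). Of the B cell markers 7 of 7 were higher in nodes, of the T cell markers 7 of 7 and of the natural killer markers 4 of 5. Of the plasmacytoid dendritic cell markers 4 of 6 were higher, and of the conventional dendritic cell markers 4 of 5. Neutrophil markers were higher for 4 of 6 and macrophage markers for 1 of 6. None of the 7 melanocyte markers passed the test, but all 7 differences were negative, with a median log2 difference of -0.905. Summed B cell markers ran from 178 to 1770.7 CPM in the nodes, against 0.608 to 9.51 CPM in HPN primaries, and summed macrophage markers from 354 to 1244.2 CPM in the nodes, against 61.2 to 627 CPM in HPN primaries. Keratinocyte markers were lower in nodes, 7 of 7 with a median log2 difference of -6.78, and so were 4 of 4 skeletal muscle markers (median -7.87), while 2 of 4 endothelial markers were higher. Summed keratinocyte markers ran from 2.11 to 21.3 CPM in the nodes, against 2.05 to 5920.8 CPM in HPN primaries, and summed muscle markers from 0.986 to 4.26 CPM in the nodes, against 2.02 to 2394.2 CPM in HPN primaries. No marker was at 0 in all libraries of a group. Node 4, lowest of the nodes for Ptprc and for summed B cell and T cell markers, was the lowest node for 23 of the 35 members. At the other end the order differed. Node 7a was the highest node for 23 of the 35 members, but node 5 was the highest for Ptprc and summed B cell markers. Node 6 was the highest for summed T cell markers. Ptprc was 292, 136, 988, 769, 751, 589 and 718 CPM in nodes 3, 4, 5, 6, 7a, 7b and 8. Summed melanocyte markers were 30360.1, 43424.1, 4507.2, 20045.0, 14014.2, 15366.6 and 13540.3 CPM in the same order. The part of these cell types in the differences of the members was not tested, and in bulk tissue more cells of a type cannot be told apart from more RNA per cell.

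**Figure D2:**
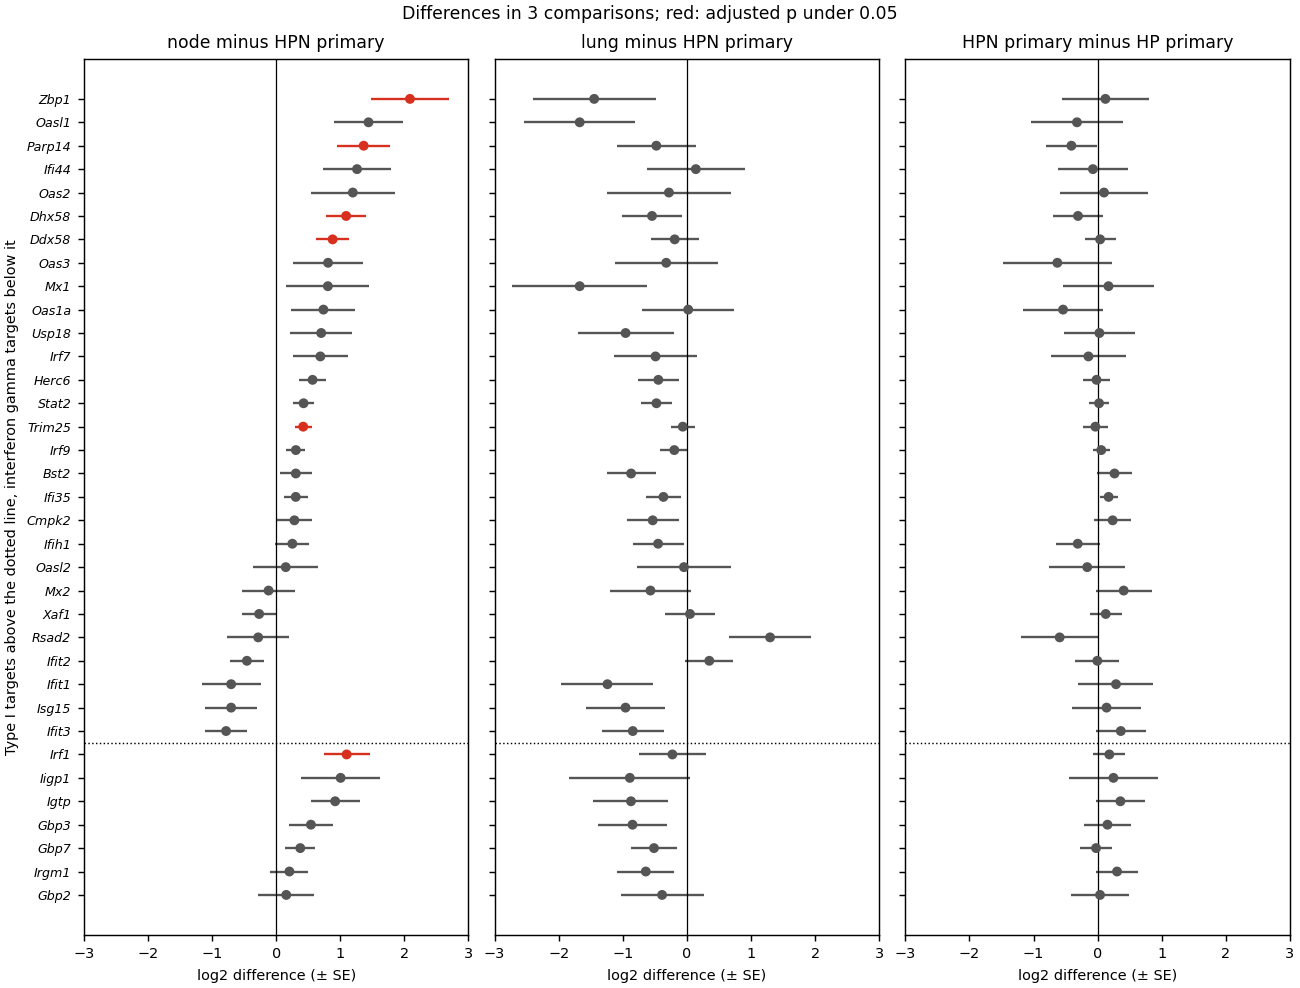
Log2 difference (horizontal axis, with 1 SE either side) of the 35 interferon response genes for nodes against HPN primaries, lungs against HPN primaries, and HPN against HP primaries; red marks an adjusted p under 0.05. The 6 red points are all in the node comparison, from Trim25 at 0.42 to Zbp1 at 2.09, and the genotype differences lie between -0.63 and 0.41.

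The rest of the pathway in the nodes was read from lists of further genes. Of all genes tested, 12.7% were called higher and 22.5% in either direction. Of 9 receptor chains and kinases 3 were higher and 1 lower: Jak1, the kinase shared by both receptors (1.41, SE 0.23), Ifngr1, the ligand-binding chain for interferon gamma (1.28, SE 0.26), and Jak2 (0.57, SE 0.15) were higher, and Ifnlr1, the receptor chain for lambda interferons (-0.69, SE 0.20), was lower, all as log2 differences. Of 14 signalling and induction genes 7 were higher and 0 lower. They include Irf8, a factor of myeloid and B cells (3.09, SE 0.47), and Tlr9, the endosomal DNA receptor (3.28, SE 0.56). Of 8 inhibitors 5 were higher, among them Ptpn6, a phosphatase of blood cells (2.96, SE 0.51), and Irf2 (1.09, SE 0.22).

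More of the targets outside the 37 were called than of the 37, where 12.7% of all genes tested were called higher. Of 25 other type I targets tested, 11 were higher and 0 lower, with a median log2 difference of 1.12; Helz2 was at 1.99 (SE 0.26), Sp100 at 3.51 (SE 0.52) and Uba7, the enzyme that activates Isg15, at 2.66 (SE 0.40). Of 15 other interferon gamma targets tested, 8 were higher and 0 lower, with a median of 1.95. Ciita, which switches on class II histocompatibility genes and is active in B cells, had 40.4, 238 and 387 CPM in the nodes, against 1.63, 5.08 and 21.5 CPM in HPN primaries (log2 difference 4.94, SE 0.72, edgeR adjusted p = 0.000446). Gbp4 stood at 2.87 (SE 0.59) and Gbp9 at 2.75 (SE 0.47). The 37 and these lists were all chosen with earlier results of these data known. The difference between these lists and the 37 is therefore a description only and was not tested.

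The interferons themselves were at the edge of detection. Of 21 ligand genes 11 have an identifier, and none had enough counts to be tested. Ifng summed to 1 count over the lungs, 49 over the nodes, 16 over the HPN primaries and 15 over the HP primaries, and 23 of the node counts came from node 7a. Ifnb1 had 0 counts in lungs, nodes and HPN primaries and 2 in the HP primaries. Ifnk, an interferon of keratinocytes, had 1, 6, 5 and 8 counts in the lungs, nodes, HPN primaries and HP primaries.

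Nodes 7a (cervical) and 7b (inguinal) share a title number but differed in these genes. All 7 interferon gamma members were higher in 7a than in 7b, with a median ratio of 3.41 and a range from 1.93 to 7.20. Gbp2 had 174 CPM in 7a and 24.2 CPM in 7b, and Iigp1 had 86.1 CPM in 7a and 14.9 CPM in 7b. All 28 type I members were higher in 7a as well, with a median ratio of 1.71. Among 13924 genes over 1 CPM in both libraries the median ratio was 1.02, and 7487 were over 1. Summed T cell markers were 536 CPM in 7a and 387 CPM in 7b, and Ptprc was 751 CPM in 7a and 589 CPM in 7b. Of the leukocyte lists only summed neutrophil markers were lower in 7a, at 219 CPM against 616 CPM in 7b. With 1 library each there is no replicate check of this difference, and the part of leukocytes in it was not tested.

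Lung metastases did not differ from HPN primaries in any member by the test: 0 of 35 were called by edgeR and 0 by DESeq2, where edgeR called 0.266% of all genes and DESeq2 1.84%. At an unadjusted p under 0.05 there was 1 member of 35, Bst2, against 7.28% of all genes. Of the 35 differences 30 were negative, with a median of -0.48 against -0.06 for all genes. Bst2 was at -0.87 (SE 0.38, edgeR adjusted p = 0.679) and Stat2 at -0.48 (SE 0.24, adjusted p = 0.712). Stat2 was the only member whose lung and HPN primary libraries did not overlap, where 3.94% of all genes did not. Oasl1 had 0.289 and 0.379 CPM in the lungs, against 0.329, 0.946 and 2.21 CPM in HPN primaries (log2 difference -1.67, SE 0.87, edgeR adjusted p = 0.718).

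The 2 lungs did not behave alike. Rsad2 (viperin), an enzyme that makes a chain-ending nucleotide against viruses, had 45.2 CPM in lung 3 and 6.55 CPM in lung 4, against 2.82, 8.54 and 21.2 CPM in HPN primaries (log2 difference 1.3, SE 0.64, edgeR adjusted p = 0.707). Only lung 3 was above the primaries. Lung 3 exceeded the primary of its number for 2 of 35 members (median log2 difference -0.76), and lung 4 for 20 of 35 (median 0.09). Over all genes tested 9188 were positive in the pair of lung 3 (median 0.00) and 9713 in that of lung 4 (0.01). Ptprc was 14.5 CPM in lung 3 and 56.7 CPM in lung 4, and the alveolar markers differed between them as given above; the part of these cells in the members' values was not tested.

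Set against the nodes, the lungs had lower estimates for 32 of the 35 members, with a median log2 difference of -0.90 against 0.02 for all genes. None passed the test, where edgeR called 5.04% of all genes, 3.09% as lower. At an unadjusted p under 0.05 were 18 of 35 (51.4%), against 22.9% of all genes. DESeq2 called 8 members lower (Bst2, Dhx58, Herc6, Igtp, Oasl1, Parp14, Stat2 and Zbp1), 22.9% of the members, where it called 12.9% of all genes, 8.88% as lower. Stat2 came nearest in edgeR, at -0.90 (SE 0.25, adjusted p = 0.05, just above the threshold), and it was called in the fit of all 4 groups (3.41% of all genes). Without node 4 edgeR called 8 members and 10.6% of all genes. Without HPN primary 1, HPN primary 2 or node 3 it called 1 member each, and 7.33%, 5.07% and 4.22% of all genes in that order. Oasl1 was at -3.11 (SE 0.96, edgeR adjusted p = 0.0726), Zbp1 at -3.53 (SE 1.10, adjusted p = 0.0765) and Dhx58 at -1.64 (SE 0.51, adjusted p = 0.0743). Lungs and nodes did not overlap for 11 of the 35 members, against 22.3% of all genes. Ptprc was lower in the lungs too, at -4.04 (SE 1.02, edgeR adjusted p = 0.0393), as were 7 of 7 B cell and 5 of 7 T cell markers, and their part in these values was not tested. Both comparisons of the lungs use the same 2 libraries, and the node comparisons share their nodes.

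Between the genotypes, no member differed by the test. HPN and HP primaries gave 0 of 35 calls by edgeR and 0 by DESeq2, where 0% of 16578 genes tested were called, and 0 of 35 members had an unadjusted p under 0.05 against 2.88% of all genes. The 35 log2 differences ran from -0.63 for Oas3 to 0.41 for Mx2, 21 of them positive, with a median of 0.04 against -0.05 for all genes. In the type I arm 15 of 28 were positive (median 0.02) and in the interferon gamma arm 6 of 7 (median 0.18). The libraries of the genotypes overlapped for all 35, as they did for every gene tested (0% without overlap).

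The 4 members with the smallest p in that comparison were Ifi35, Parp14, Rsad2 and Igtp. Ifi35, an interferon-induced partner of Nmi, had 12.4, 16.2 and 20.4 CPM in HPN primaries, against 11.7, 13.6 and 15.8 CPM in HP primaries (log2 difference 0.17, SE 0.14, edgeR adjusted p = 0.951). Parp14 had 19.8, 36.4 and 86.3 CPM in HPN primaries, against 19.8, 55.6 and 87.2 CPM in HP primaries (log2 difference -0.41, SE 0.39, adjusted p = 0.951). Rsad2 had 2.82, 8.54 and 21.2 CPM in HPN primaries, against 3.11, 10.1 and 54.8 CPM in HP primaries (log2 difference -0.59, SE 0.61, adjusted p = 0.951). Igtp was at 0.36 (SE 0.38, adjusted p = 0.951). In simulated counts at these library sizes, 36.0% of genes changed by 1 on the log2 scale were recovered and 92.0% of those changed by 3. The changed genes, 100 of each size, were drawn at random from genes over a set mean CPM. Lowly expressed members such as Oasl1, Ifi44 and Oas2 did not reach that mean. Planted changes also ease the adjusted threshold, whereas the real fit called no gene. No recovery was computed for the members, whose SE in this comparison ran from 0.13 for Irf9 to 0.85 for Oas3. The recovery therefore does not give the power for the members.

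Single tumours stood high within each genotype. HP primary 3 was the highest HP primary for 26 of the 28 type I members, and HP primary 9 was the highest for 6 of the 7 interferon gamma members. Rsad2 had 54.8 CPM in HP primary 3 and 10.1 CPM in the median HP primary; Irf7 had 32.7 CPM and 5.89 CPM in the same order. Among HPN primaries number 1 was the highest for 19 of 28 type I members and for 4 of 7 interferon gamma members. By the mean log2(CPM + 0.5) over an arm, node 7a ranked 1st of 23 libraries in both arms, HP primary 3 ranked 2nd in the type I arm and 10th in the interferon gamma arm, HP primary 9 ranked 13th and 2nd, and HPN primary 1 ranked 4th and 6th, the highest HPN primary in both. Ptprc was 139 CPM in HP primary 3 and 11.5 CPM in HP primary 9, which was the lowest HP primary for Ptprc and for summed T cell and macrophage markers. HP primaries 3 and 9 and node 7a hold reads in the entry for low alignment quality, and HPN primary 1 does not. The part of this in their levels was not tested. HP primary 3 also had the lowest TMM factor, 0.744, next to 0.869; without TMM scaling it was the highest HP primary for 17 of the 35 members, all of them type I.

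**Figure D3:**
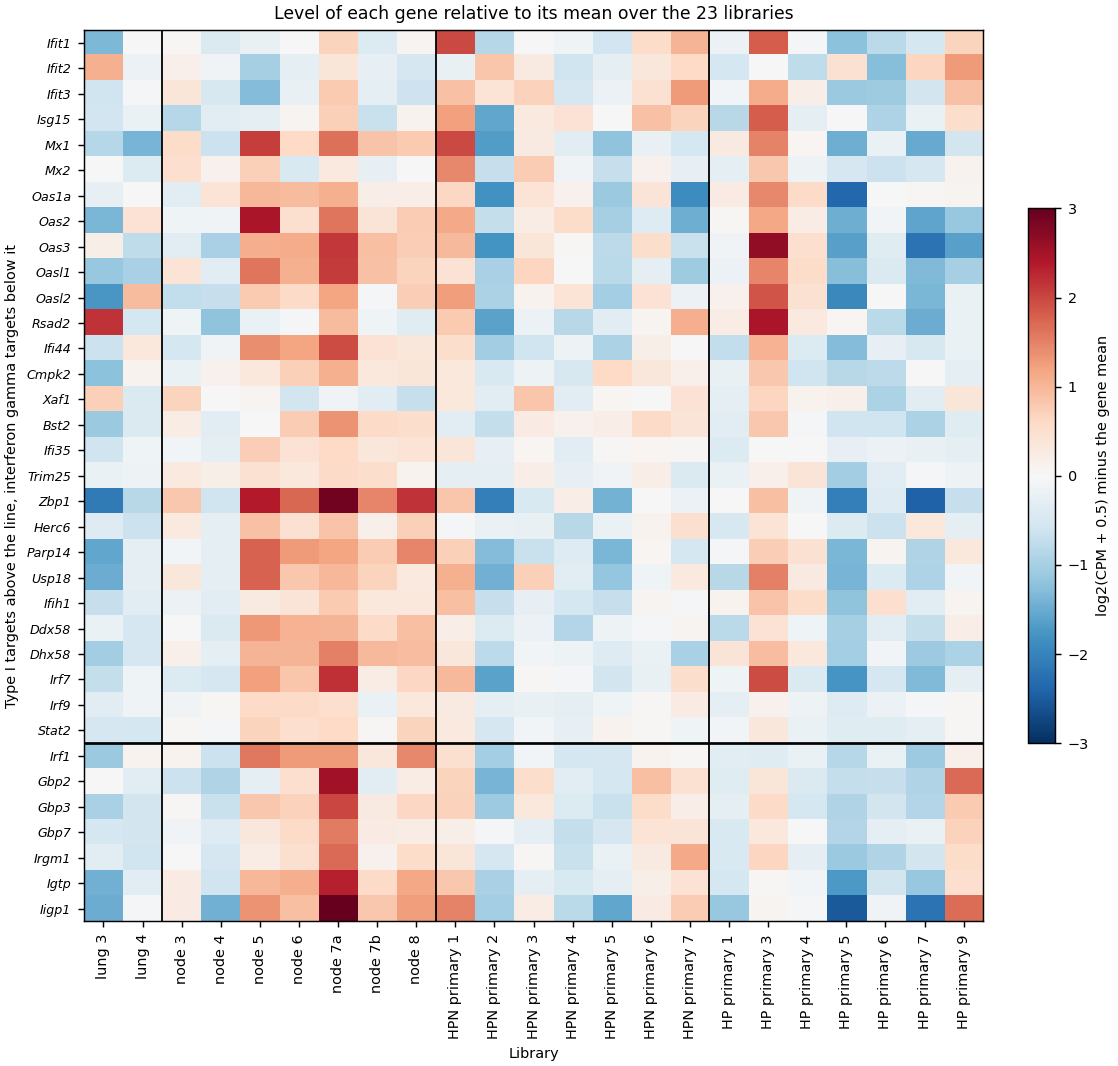
Log2(CPM + 0.5) of each of the 35 interferon response genes minus that gene's mean, across 23 libraries grouped as lungs, nodes, HPN primaries and HP primaries. HP primary 3 and HPN primary 1 stand out in the type I rows and HP primary 9 in the interferon gamma rows, and node 7a is high in both.

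**Figure D4:**
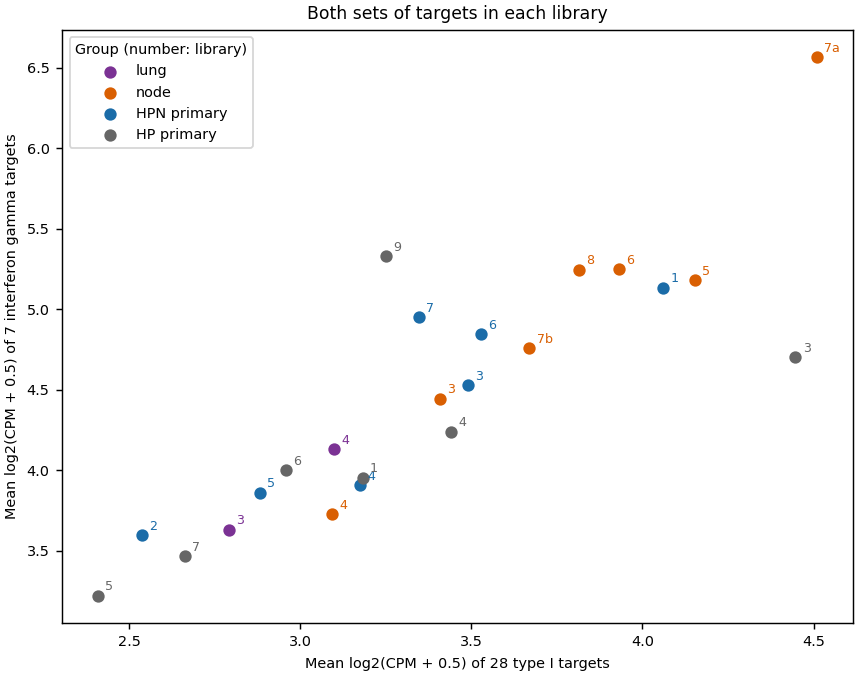
Mean log2(CPM + 0.5) of 7 interferon gamma members against that of 28 type I members, 1 point per library, coloured by group. Node 7a ranks 1st on both axes, HP primary 3 ranks 2nd on the type I axis and 10th on the other, and HP primary 9 ranks 13th and 2nd.

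Over the 14 primaries pairs of genes were set against each other on log2(CPM + 0.5), with permutation tests adjusted over 4 pairs, of which 3 are given. Irf7 and Isg15 were correlated (r = 0.76, adjusted p = 0.00370; rho = 0.73, adjusted p = 0.00579), as did Gbp2 and Igtp (r = 0.79, adjusted p = 0.00360; rho = 0.86, adjusted p = 0.00068). Isg15 and Gbp2, one from each arm, had r = 0.72 (adjusted p = 0.00451) and rho = 0.78 (adjusted p = 0.00312). Without the 2 primaries farthest from the median the r values were 0.75, 0.78 and 0.70 in that order. Within the HPN primaries alone these 3 pairs had r of 0.92, 0.82 and 0.90 (exact permutation test, adjusted p = 0.0123, 0.0328 and 0.0123), and within the HP primaries alone r of 0.66, 0.79 and 0.55 (adjusted p = 0.271, 0.123 and 0.276, exact permutation test). Among the 9 primaries without low-quality reads r was 0.66, 0.72 and 0.85 (adjusted p = 0.0663, 0.0522 and 0.0178, permutation test), and the other 5 primaries were too few for a value. All points share the TMM scaling of their library.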

How the data were processed

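Total RNA of 23 mouse melanoma libraries was isolated on AllPrep columns and made into directional libraries, per the labels' protocols. The submitters' processing notes name bcl2fastq 1.8.4, STAR 2.5.3a and the build mm9. The authors deposited raw counts for each Ensembl gene, as whole numbers without normalization, 1 table per library. The sources used here do not give the strand setting of the counting or its annotation release. Summary entries that name no gene (49.2 to 75.0% of all entries) entered neither library sizes nor tests.

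Symbols came by identifier from GENCODE vM21 (87.45% of identifiers matched; the others hold 1.704% of the counts), whose build differs from the authors', so it was used for names and overlaps only. Promoters are RefSeq sequences of GRCm38.p6. The members and all gene lists were chosen with earlier results of these data known. Named with values in every library were 14 genes that stand for the roles, and in each comparison the 4 members with the smallest p and those called; up to 4 called genes were named from each further list.

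There were 2 fits with edgeR 4.0.16 (R 4.3.3), after filterByExpr and TMM, by glmQLFit with robust dispersion and glmQLFTest: the 14 primaries, and 15 samples of lung, node and HPN primary after the counts of nodes 7a and 7b were summed. P-values were adjusted by Benjamini-Hochberg over all genes tested, with a threshold of 0.05. They judge a difference between groups against the spread between these samples, which the main fits treat as independent. Shared title numbers enter only the fits with the number as a block. Printed CPM were scaled by TMM over all 23 libraries. Correlations used 100000 resamples (scipy 1.17.1, Python 3.11.15), or all orders with 7 samples. One of the 4 pairs tested, and 1 gene of a further list, are not reported here. The fits were tested on simulated data. Alternatives were DESeq2 1.42.0, its size factors, other filters, all 4 groups in 1 fit, nodes 7a and 7b apart, a batch of 8 libraries with reads of low alignment quality, each library left out, title number as a block and other pseudocounts. Leaving out node library 7a or 7b was added after seeing the data. Title numbers were read as animals for the HPN tissues. Deviations of nodes and primaries with the same number correlated at r of -0.06 to 0.28 over genes, over 0.1 in 3 of 5 pairs. HPN and HP primaries with the same number are different animals, and they correlated at r of -0.06 to 0.72, over 0.1 in 5 of 6 pairs. The measure therefore cannot show that a shared number means a shared animal.

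Parts of some members' exons are shared with any other gene in 50-base stretches: 57.6% of Oas1a, 51.2% of Ifit3, 12.7% of Gbp7, 12.5% of Herc6 and 11.8% of Igtp. The gene that shares the most is Oas1g for Oas1a and Ifit3b for Ifit3. Of Ifi35, 16.8% overlaps a gene on the opposite strand.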

Additional observations from a re-analysis of the deposited data

Results flagged for a closer look

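Single tumours stood far from the rest of their group for 20 of the 105 combinations of a member with a group of nodes, HPN primaries or HP primaries: the gap to the nearest library was large against the whole range of the group. For normally distributed values such a rule flags about 1 in 20 cases. It was applied here to CPM without a log scale, and all 20 flags were high, so that rate need not hold. The members are also correlated, so that the 20 are not independent.

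HP primary 3 gave 12 of them, all high and all in the type I arm. Rsad2 stood there at 54.8 CPM, Irf7 at 32.7 CPM and Oasl2 at 26.2 CPM. The synthetase Oas3 was at 24.8 CPM, Ifit1 at 20.2 CPM, Isg15 at 14.3 CPM and the Isg15 protease Usp18 at 15.6 CPM. Bst2 was at 39.9 CPM, Cmpk2, a nucleotide kinase, at 15.5 CPM, Mx1 at 10.3 CPM, Mx2 at 5.75 CPM and Ifi44 at 3.06 CPM. That library also has the lowest TMM factor, and without TMM scaling 5 of the 12 remained: Isg15, Oas3, Rsad2, Ifi44 and Irf7. The part of the scaling in the others was not tested further.

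HP primary 9 was high for the interferon gamma members Gbp2 (98.9 CPM) and Iigp1 (27.6 CPM). HPN primary 1 was high for Mx1 (14.7 CPM) and Ifih1 (45.1 CPM), and HPN primary 7 for Irgm1, an immunity-related GTPase (91.6 CPM). Among nodes, number 5 was high for Oas2 (13.4 CPM) and Usp18 (18.8 CPM), and number 7, as the mean of its 2 libraries, for Gbp2 (99.3 CPM).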

How the results depend on the processing

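The 6 node calls stayed at 6 with DESeq2's size factors, with no filter, with a filter of over 1 CPM and without node library 7b. They also stayed at 6 with all 4 groups in 1 fit, where 5 of the 6 genes were kept. There were 9 calls with DESeq2 (30% of all genes) and 8 with nodes 7a and 7b apart. With title number as a replicate block 0 members were called (7% of all genes), and 2 in the same samples without the block (14.4%). With a term for the libraries that hold reads of low alignment quality 3 were called, and without those libraries 0 (8.19% of all genes). Leaving out each sample in turn gave 0 to 10. For lungs against nodes the count of 0 became 8 with DESeq2 (12.9% of all genes) and 2 with nodes 7a and 7b apart. It became 1 with all 4 groups in 1 fit (3.41% of all genes) or without node library 7b, and ranged from 0 to 8 over samples left out. Counts given without a share of all genes show only how the calls moved with the setting. They do not set the members against other genes. The cause of these changes was not tested. Lungs against HPN primaries and HPN against HP primaries gave 0 under every alternative, the block for the genotypes included; the numbers there join different animals. Correlations with an adjusted p above 0.05 were, within HP primaries, Irf7 with Isg15 (0.66), Gbp2 with Igtp (0.79) and Isg15 with Gbp2 (0.55), and, within primaries without low-quality reads, Irf7 with Isg15 (0.66) and Gbp2 with Igtp (0.72). Tests of single members were followed only for members called in at least 1 setting of a comparison. These tests stayed on their side of the threshold in 472 cases, lost a call in 54 and gained one in 41. Depth limits the lowest member, Oasl1, with 6 counts in 1 library.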
